A study of Anopheles gambiae with 18 samples.

Results

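Lysozymes are enzymes that cut the sugar backbone of peptidoglycan, the mesh that gives bacterial cell walls their strength. Insects carry several c-type (chicken-type) lysozyme genes, and in mosquitoes and flies their products are known both from the defence against bacteria and, in some flies, from the digestion of bacteria in the gut. The midgut of *Anopheles gambiae* starts with the cardia, a muscular valve at the end of the foregut. It continues with the narrow anterior midgut and ends with the wide posterior midgut, where blood is digested.

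The 3 transcripts described here were ENSANGT00000018439 (EN018439), ENSANGT00000018395 (EN018395) and ENSANGT00000025070 (EN025070), all annotated as lysozyme C in the male versus female sheet of the study's gene list. The text beside EN025070 in the cardia versus posterior sheet is that of another gene family. They were found by their identifiers in the names of the array features. These identifiers stood on 4 of 15495 features, and the array carried 14198 transcripts with a value. EN018395 was carried by 2 features, one named by the identifier alone and one with the prefix REP. EN018439 and EN025070 had 1 feature each.

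The measurements came from 18 arrays with 60-base oligonucleotides, each of which compared the midgut RNA of 1 sample, labeled with Cy5, with that of another, labeled with Cy3, in 4-day-old Keele strain mosquitoes. In 3 arrays, male midgut (Cy5) was compared with unfed female midgut (Cy3). In 12 arrays, a compartment of the unfed female midgut (the cardia, the anterior, the anterior-posterior or the posterior-posterior part, with 3 arrays each) was compared in the Cy5 channel with whole female midgut in the Cy3 channel. In the last 3 arrays, female cardia (Cy5) was compared directly with female posterior midgut (Cy3). The age stood in the labels of all samples except the first anterior one, for which it came from the study's methods. The 3 assays of a comparison were described as biological replicates, and how many midguts entered each sample was not given in the sources used here. The dyes were never swapped, so that dye effects and differences between samples cannot be told apart. In dissected tissue, a higher ratio can stand for more RNA per cell or for more cells of the expressing kind, and these cannot be told apart either.

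All values below are log2 ratios of Cy5 to Cy3, so that 1 stands for a 2-fold higher level in the first-named sample. On each array they were centred on the median of 1937 transcripts, those listed by the study for the male versus female assay, which were taken as the transcripts that passed its signal filter. All 3 lysozymes were in that list. A transcript was called where its mean was at least 2-fold away from 0 and its Benjamini-Hochberg adjusted p, over all listed transcripts with a value in the comparison, was under 0.05 in 1 limma fit of the 18 arrays. An SD is that of the 3 arrays of a comparison, whereas the test used 1 spread per transcript shared by the 6 comparisons. No signal intensities came with the ratios, so that the brightness of a spot, and with it its precision, is unknown. Between 12273 and 15494 features had a value per array, and the number of arrays limits the precision.

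The arrays of the 6 comparisons were not equally repeatable. The median SD over the listed transcripts was 0.23 in the cardia versus posterior comparison and 0.27 in the sex comparison. It was 0.75 in the cardia versus whole midgut comparison, where the listed values of any pair of the 3 arrays correlated between -0.13 and 0.06. In the other comparisons with whole midgut it lay between 0.38 and 0.50. The array medians that were subtracted also differed, from -1.86 to 0.28 over the 18 arrays. The cardia versus posterior and the sex comparisons are therefore described first.

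In the cardia, the level of EN025070 was 6.01-fold that of the posterior midgut and the level of EN018439 was 2.63-fold that of the posterior midgut, and both were called. The third transcript, EN018395, had a mean ratio of 1.94-fold and was not called. Across the list, 102 of 1937 transcripts (5.27%) were called in this comparison, and 87 of them (4.49%) were higher in the cardia, against 2 of the 3 lysozymes. The study's text already names EN018439 and EN018395 as enriched in the cardia from these same data. The share of lysozymes called is therefore a description and not a test.

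EN025070 measured 2.30, 2.54 and 2.93 on the 3 cardia versus posterior arrays. Its mean was 2.59 ± 0.32 (SD, n = 3), with a 95% confidence interval from 1.43 to 3.75 and an adjusted p of 0.00731 in limma. All 3 arrays placed it far above the rest of the list, with 99.7% to 99.8% of the listed transcripts lower on the same array. By mean ratio, 2 listed transcripts were higher. EN018439 measured 1.19, 1.43 and 1.56, with a mean of 1.39 ± 0.19 (SD, n = 3), an interval from 0.81 to 1.97 and an adjusted p of 0.00412 in limma. It was also high on every array, above 95.5% to 96.9% of the list, and 47 listed transcripts had a higher mean. The order of these 2 lysozymes was the same on every array. EN025070 exceeded EN018439 by 1.19 ± 0.15 (SD, n = 3), a difference of ratios on the same array that does not depend on how the array is centred.

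Neither call held without array 2 or without array 3. When array 2 was left out, the adjusted p in limma was 0.0636 for EN018439 and 0.0732 for EN025070, and when array 3 was left out it was 0.0689 and 0.0929. Without array 1, both were still called, at 0.0291 and 0.0408, among 53 of 1932 listed transcripts. The ratios themselves moved little, from 1.31 to 1.50 for EN018439 and from 2.42 to 2.73 for EN025070. With all transcripts of the array in the fit in place of the list, the adjusted p rose to 0.0859 and 0.0710.

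For EN018395 the array values were 0.43, 1.37 and 1.07, with a mean of 0.96 ± 0.48 (SD, n = 3), an interval from 0.19 to 1.73 and an adjusted p of 0.150 in limma. All 3 were above 0, and the first was the lowest. Each is a mean of 2 spots that did not read alike. The REP spot measured 1.20, 1.42 and 1.66 (mean 1.43 ± 0.23, SD, n = 3). The plain spot measured -0.34, 1.32 and 0.48 (mean 0.49 ± 0.83, SD, n = 3). The REP spot was thus higher on each of the 3 arrays, by 0.10 to 1.54. Fitted alone, a setting chosen after the data had been seen, the REP spot was called (adjusted p = 0.00561 in limma), whereas the plain spot was not (adjusted p = 0.609).

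**Figure D1:**
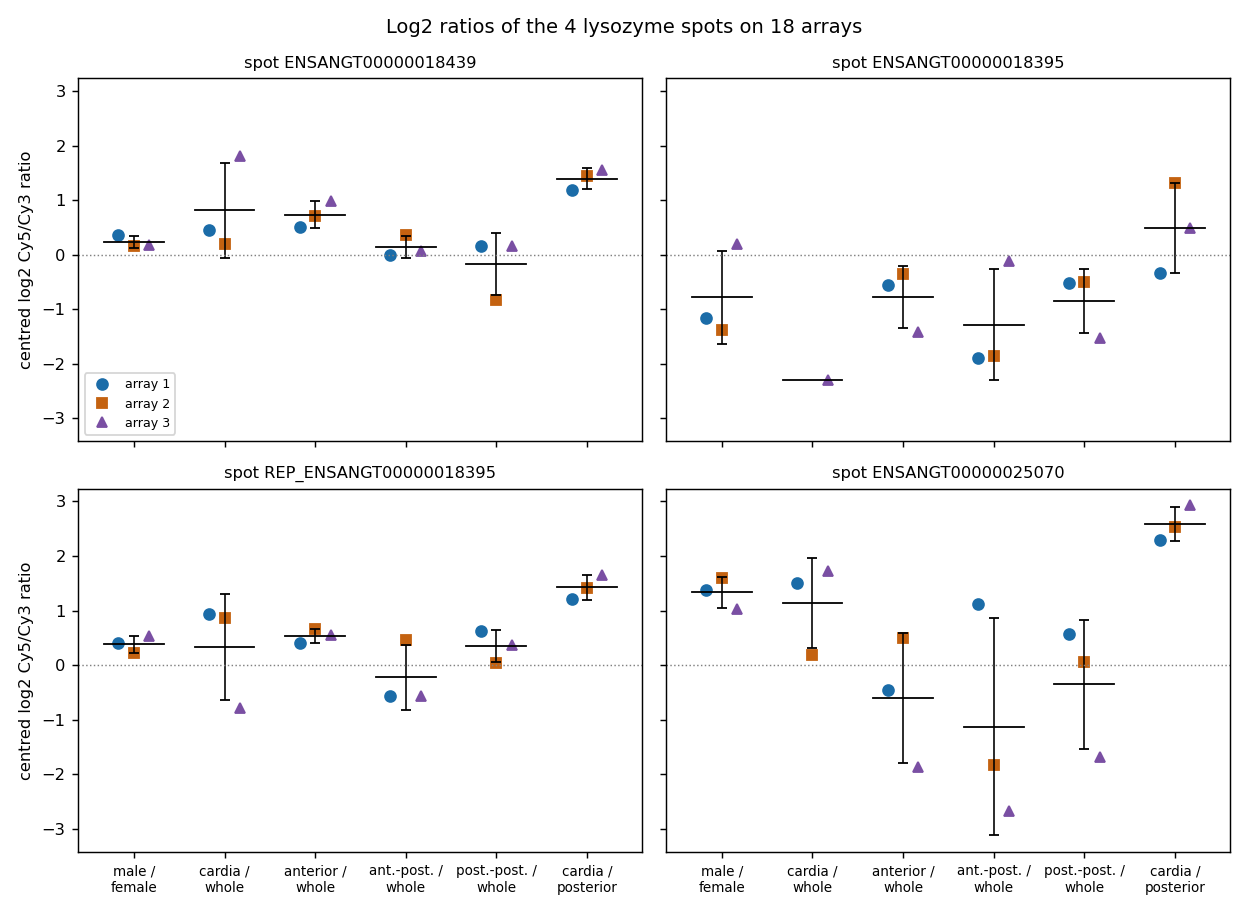
Centred log2 Cy5/Cy3 ratios (vertical axis) of the 4 lysozyme spots in the 6 comparisons (horizontal axis), with 1 point per array, a bar at the mean and whiskers of 1 SD over the arrays with a value. In the cardia versus posterior comparison EN018439 and the REP spot of EN018395 lie between 1.19 and 1.66 and EN025070 between 2.30 and 2.93, and the plain spot of EN018395 has a value on 1 of the 3 cardia versus whole arrays.

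The sexes differed less. None of the 3 lysozymes was called between male and female midgut by limma, against 28 of 1937 listed transcripts (1.45%). At an unadjusted p under 0.05 in limma and a mean past 2-fold, EN025070 was 1 of 103 listed transcripts, and the other lysozymes were not among them. EN025070 stood apart from the other two by its values, with a level in the male midgut that was 2.53-fold that of the female midgut. This direction is opposite to the one in the study's text, which names this transcript among those enriched in females. The sign here follows the labels and the methods, which both give male midgut as the Cy5 sample, and it was the same with every centring.

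EN025070 measured 1.39, 1.59 and 1.03 on the 3 sex arrays. The mean was 1.34 ± 0.28 (SD, n = 3), with an interval from 0.18 to 2.50 and an adjusted p of 0.213 in limma. On all 3 arrays it was higher in males and above 98.0% to 98.8% of the list, and 16 listed transcripts had a higher mean. The SD of this transcript was larger in the comparisons with whole midgut, at 0.83 to 1.99, and the shared spread includes those arrays. When limma was fitted to the sex comparison by itself, EN025070 was called (adjusted p = 0.00505), as were 103 of 1937 listed transcripts (5.32%). It was also called with array weights (adjusted p = 0.00950 in limma), as were 107 of 1937 listed transcripts. With arrays centred on all transcripts it was called at a mean of 2.01 (adjusted p = 0.0172 in limma). That centring called 428 of 1937 listed transcripts, all of them higher in males, and the list median was 0.65.

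The other 2 lysozymes had mean ratios under 2-fold in this comparison. EN018439 measured 0.37, 0.16 and 0.17, with a mean of 0.23 ± 0.12 (SD, n = 3), an interval from -0.35 to 0.81 and an adjusted p of 0.753 in limma. The 3 values were small and on the male side. EN018395 measured -0.38, -0.58 and 0.36, with a mean of -0.20 ± 0.50 (SD, n = 3), an interval from -0.97 to 0.57 and an adjusted p of 0.835. The arrays disagreed in sign, with the transcript above 13.6% to 82.2% of the list, and so did the spots, with the REP spot at 0.38 ± 0.16 (SD, n = 3) and the plain spot at -0.78 ± 0.85. The mean was also positive, at 0.48, with arrays centred on all transcripts. On the same array EN025070 exceeded EN018439 by 1.10 ± 0.29 (SD, n = 3), with 3 of 3 differences above 0.

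**Figure D2:**
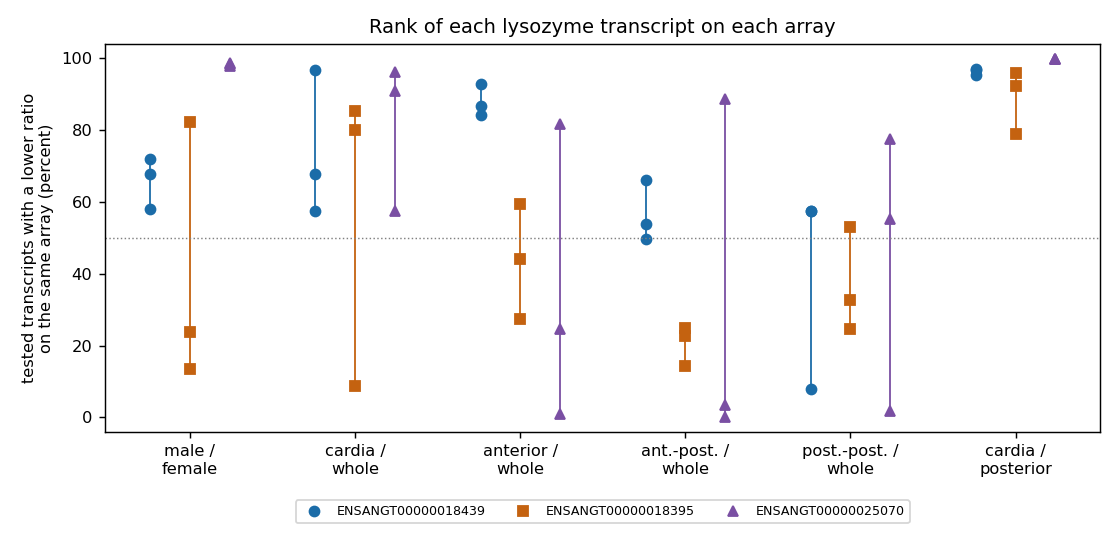
Percent of the listed transcripts with a lower ratio on the same array (vertical axis) for each lysozyme in the 6 comparisons (horizontal axis), with 1 point per array and a line from the lowest to the highest. EN025070 lies above 98.0% to 98.8% of the list in the sex comparison and above 99.7% to 99.8% in the cardia versus posterior comparison, and covers most of the range in the comparisons with whole midgut other than the cardia.

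The comparisons with whole female midgut were made to place transcripts in the 4 compartments. None of the 3 lysozymes was called in any of them by limma, and 2 of the 12 ratios had an unadjusted p under 0.05, both of EN018439. The share of the list under that unadjusted p alone was not counted. The background of calls was 88 of 1933 listed transcripts (4.55%) for the cardia and 60 of 1937 (3.1%) for the anterior part. For the anterior-posterior part it was 206 of 1937 (10.6%), and for the posterior-posterior part 32 of 1937 (1.65%). For each lysozyme the mean ratio was highest in the cardia with the centring used here. With arrays centred on all transcripts or not centred, EN018439 and EN018395 were highest in the anterior part. For EN018395 the cardia mean rested largely on the REP spot. That spot alone, with the centring used here, was higher in the anterior part (0.54) than in the cardia (0.33).

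EN018439 measured 0.44, 0.19 and 1.80 in the cardia, with a mean of 0.81 ± 0.87 (SD, n = 3) and an adjusted p of 0.0876 in limma. In the anterior part it measured 0.51, 0.71 and 0.98, with a mean of 0.73 ± 0.24 (SD, n = 3) and an adjusted p of 0.118. All 6 values were above 0, and the anterior ones lay closer together than those of the cardia. The third cardia array was far above the others.

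In the anterior-posterior part EN018439 measured -0.01, 0.37 and 0.06, with a mean of 0.14 ± 0.20 (SD, n = 3) and an adjusted p of 0.760 in limma. In the posterior-posterior part it measured 0.15, -0.84 and 0.16, with a mean of -0.18 ± 0.57 (SD, n = 3) and an adjusted p of 0.742. These values lay on both sides of 0. The means thus fell in the order cardia, anterior, anterior-posterior and posterior-posterior, but the limma interval of each difference between neighbours included 0. The 3 anterior values were all above the 3 anterior-posterior ones, whereas the other neighbours overlapped. The cardia minus anterior difference was 0.07 (95% interval -0.75 to 0.90), the anterior minus anterior-posterior difference 0.59 (-0.23 to 1.42) and the anterior-posterior minus posterior-posterior difference 0.32 (-0.50 to 1.14). Without cardia array 2, the cardia versus whole ratio of EN018439 was 1.12. It was called (adjusted p = 0.0250 in limma), as were 214 of 1811 listed transcripts. It was not called without array 1, at 0.99 (adjusted p = 0.0858), or without array 3, at 0.32 (adjusted p = 0.461). With arrays centred on all transcripts, EN018439 was also called in the anterior part, at 1.52, and in the anterior-posterior part, at 1.02. That centring called 643 and 800 of 1937 listed transcripts higher in these parts. The list medians were then 0.74 and 0.875, so that the calls do not set this lysozyme apart.

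EN025070 had the largest SD of the 3 in each comparison with whole midgut except that of the cardia, where it had the smallest. It measured 1.50, 0.19 and 1.72 in the cardia, with a mean of 1.14 ± 0.83 (SD, n = 3) and an adjusted p of 0.237 in limma. In the anterior part it measured -0.45, 0.50 and -1.86, with a mean of -0.60 ± 1.19 (SD, n = 3) and an adjusted p of 0.501. The cardia values were all above 0, and the anterior values fell on both sides of it.

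In the anterior-posterior part EN025070 measured 1.12, -1.83 and -2.67, with a mean of -1.13 ± 1.99 (SD, n = 3) and an adjusted p of 0.156 in limma. In the posterior-posterior part it measured 0.57, 0.06 and -1.68, with a mean of -0.35 ± 1.18 (SD, n = 3) and an adjusted p of 0.743. On the third anterior-posterior array this lysozyme had the lowest ratio of the list, whereas on the first it was above 88.7% of the list. Without that first array, the anterior-posterior mean was -2.25 and was called (adjusted p = 0.0304 in limma), as were 78 of 1932 listed transcripts. Without array 2 it was -0.78 and without array 3 it was -0.36, and neither was called. The order of the means was cardia, posterior-posterior, anterior and anterior-posterior. The cardia exceeded the posterior-posterior part by 1.49 (95% interval -0.15 to 3.13), the posterior-posterior part differed from the anterior part by an anterior minus posterior-posterior value of -0.25 (-1.89 to 1.39), and the anterior minus anterior-posterior difference was 0.53 (-1.12 to 2.17).

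EN018395 measured 0.93, 0.87 and -1.54 in the cardia, with a mean of 0.08 ± 1.41 (SD, n = 3) and an adjusted p of 0.923 in limma. The first 2 of these values came from the REP spot alone, because the plain spot had no value on those arrays. On the third array the REP spot was at -0.79 and the plain spot at -2.30. In the anterior part it measured -0.07, 0.16 and -0.44, with a mean of -0.12 ± 0.30 (SD, n = 3) and an adjusted p of 0.852.

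In the anterior-posterior part EN018395 measured -1.23, -0.69 and -0.34, with a mean of -0.75 ± 0.45 (SD, n = 3) and an adjusted p of 0.154 in limma. In the posterior-posterior part it measured 0.06, -0.24 and -0.58, with a mean of -0.25 ± 0.32 (SD, n = 3) and an adjusted p of 0.717. The anterior-posterior values were all below 0, and the mean was 0.13 with arrays centred on all transcripts. The order of the means was cardia, anterior, posterior-posterior and anterior-posterior, and the limma interval of each difference between neighbours again included 0. The differences were 0.20 (95% interval -0.89 to 1.29) for cardia minus anterior, 0.14 (-0.95 to 1.23) for anterior minus posterior-posterior and -0.50 (-1.59 to 0.59) for anterior-posterior minus posterior-posterior.

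The compartments were also set against each other through the shared whole midgut reference. In 7 such contrasts limma called none of the 3 lysozymes, and 6 of the 21 differences had an unadjusted p under 0.05. The 21 differences are not independent, because the contrasts share arrays. The share of the list under that unadjusted p alone was not counted, so that no excess can be read from it. The contrasts called few listed transcripts. These were 2.85% for cardia minus anterior-posterior, 2.9% for cardia minus the mean of both posterior parts, 0.103% each for cardia minus anterior and cardia minus posterior-posterior, 0.0516% for anterior minus anterior-posterior and 0% for the 2 contrasts of the posterior-posterior part with the anterior and anterior-posterior parts, where 50 and 37 listed transcripts were past 2-fold at an unadjusted p under 0.05. EN025070 had the largest differences of the 3, at 2.27 for cardia minus anterior-posterior (95% interval 0.62 to 3.91, adjusted p = 0.106 in limma) and 1.88 for cardia minus the mean of both posterior parts (0.45 to 3.30, adjusted p = 0.112). Leaving out the first anterior-posterior array brought these contrasts of EN025070 to 3.39 (adjusted p = 0.0349 in limma) and 2.44 (adjusted p = 0.0394), both called. Without that array the 2 contrasts called 20 and 29 of 1928 listed transcripts. Leaving out the third cardia array brought the same contrasts of EN018395 to 1.65 (adjusted p = 0.0142 in limma) and 1.40 (adjusted p = 0.0153), also called. Without that array, however, the 2 contrasts called 295 and 286 of 1692 listed transcripts, far more than with all arrays. The cardia values left in that fit came from the REP spot alone, whereas those of the posterior parts averaged both spots. The REP spot read 1.16 higher on average, so that these EN018395 contrasts compare unlike spots. No other single omission called any of these contrasts of either transcript.

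The cardia versus whole arrays had features that bear on these values. Ratios equal to a fraction of small whole numbers, with a denominator of up to 10 and a tolerance of 0.00051 on the linear ratio, made up 55.4% of the listed values on the second array, the highest share of the 18 arrays, against at most 30.2% in the other comparisons. On that array EN018439 and EN025070 had the same value of 0.19, the centred form of a deposited ratio of 0.5, and the REP spot of EN018395 was such a fraction too. Their part in the cardia results was not tested. In the cardia versus posterior comparison, the REP spot of EN018395, EN018439 and EN025070 had no such value on any array, whereas the plain spot of EN018395 had 2.

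How the arrays were centred moved the ratios of all 3 lysozymes. The median of the list minus the median of all transcripts ranged from -0.19 to 1.31 over the 18 arrays. The cardia versus posterior ratios were positive for all 3 lysozymes with each of the 3 centrings, whereas the ratios to whole midgut changed sign between centrings, except those of EN018439 in the anterior and EN025070 in the anterior-posterior part. Without centring, EN018439 in the cardia was at -0.63 and EN025070 at -0.30.

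**Figure D3:**
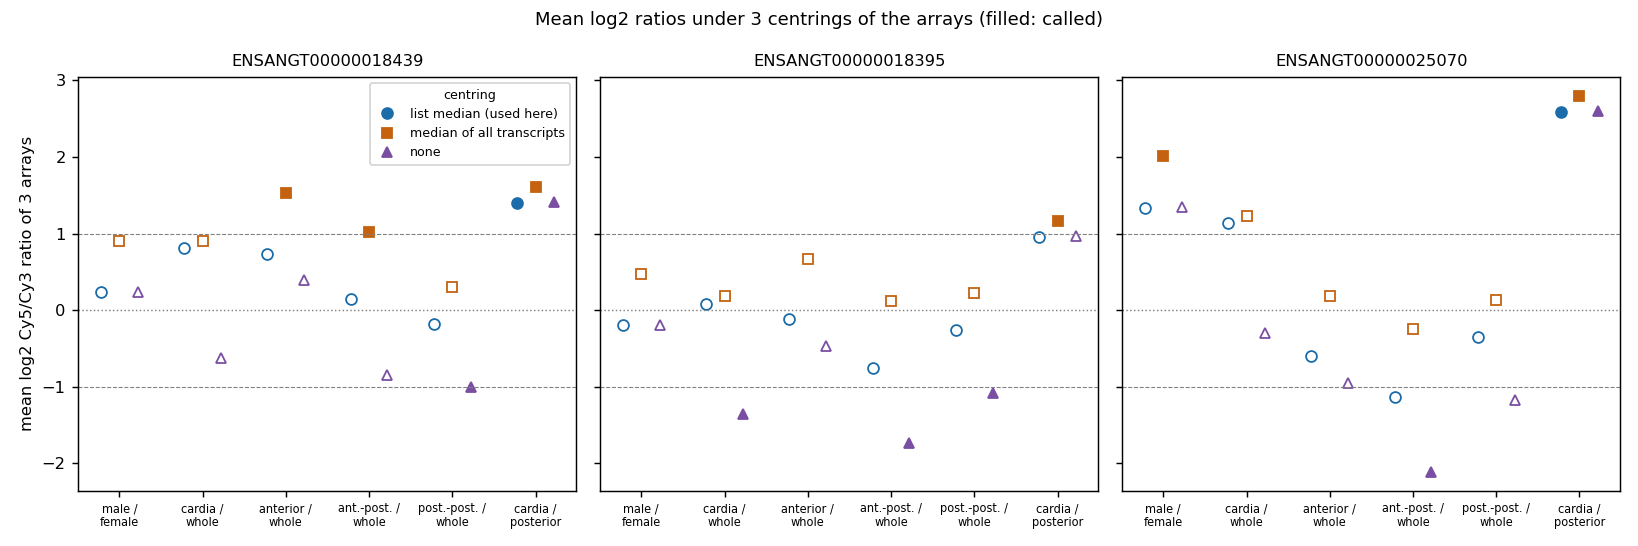
Mean log2 ratio of 3 arrays (vertical axis) of each lysozyme in the 6 comparisons (horizontal axis) with arrays centred on the list, on all transcripts or not at all. Filled symbols are called and dashed lines mark 2-fold. The cardia versus posterior means of EN018439 and EN025070 are called with each centring, at 1.39 and 2.59 on the list, and the calls in comparisons with whole midgut change with it.

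The spots of EN018395 differed in level on most arrays. Over the 16 arrays where both had a value, the REP spot was higher on 15, by 1.16 ± 0.73 on average (SD over arrays), and the Pearson correlation of both was 0.66. Among the 218 listed transcripts with such a pair of spots, 7.34% had a larger mean difference in absolute value, and the median was 0.48. Among all 786 such transcripts, 3.05% had a larger one, and the median was 0.30. The median correlation of the spots of a pair was 0.21 in the list and 0.26 over all 786. The spots of EN018395 thus followed each other more closely than those of the median pair, although their levels differed more. EN018439 and EN025070 had 1 spot each, so that agreement between spots could not be seen for them. The REP spot was closer in mean ratio to EN018439 than to the plain spot of its own transcript, but correlated more with the plain spot. In the cardia versus posterior comparison it differed from EN018439 by 0.03 ± 0.06 (SD, n = 3), and over the 18 arrays by a median of 0.29 in absolute value. Their correlation over the 18 arrays was 0.35, with the third cardia versus whole array apart at 2.59 between them. Probe sequences were not used here, and whether a probe of this family binds the transcripts of another member was not tested.

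**Figure D4:**
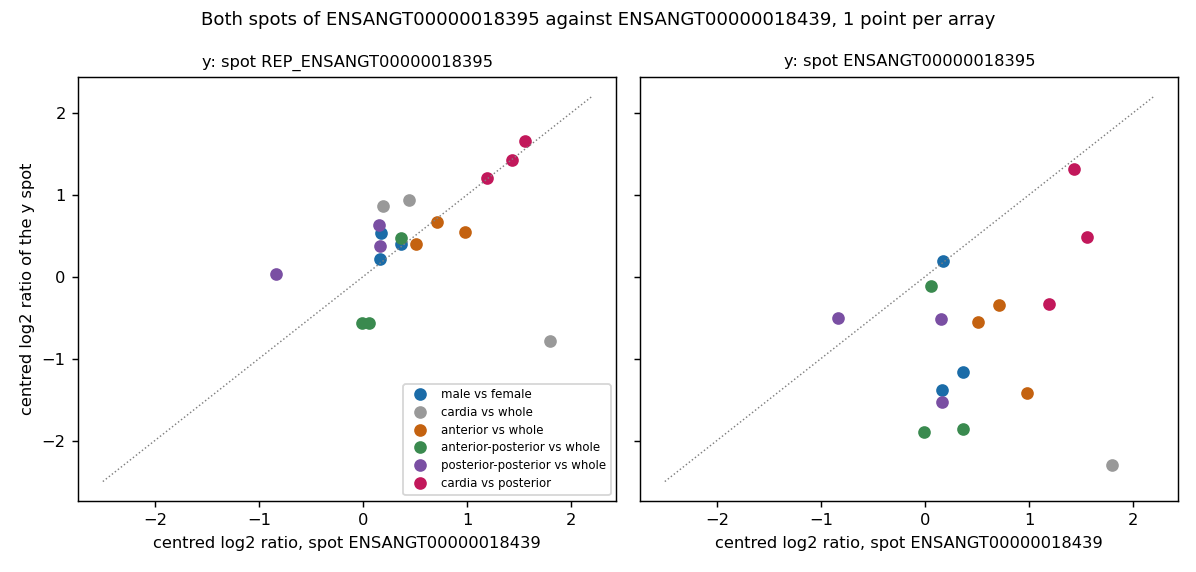
Centred log2 ratios of the REP spot (left) and the plain spot (right) of EN018395 on the vertical axis against EN018439 on the horizontal axis, with 1 point per array, colored by comparison, and a dotted line of equality. The 3 cardia versus posterior arrays lie on the line for the REP spot and up to 1.53 below it for the plain spot.

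The 3 lysozymes did not follow each other closely from array to array. Their centred ratios over the 18 arrays, which share the centring and the reference samples' kind, had a Pearson correlation of 0.45 for EN025070 with EN018439, 0.39 for EN025070 with EN018395 and 0.20 for EN018439 with EN018395. Of the 1936 other listed transcripts, those most like EN025070 were EN012705 (r = 0.93, 18 arrays) and EN029111 (r = 0.89, 18 arrays). Both were annotated as chitin-binding peritrophin A, a family of proteins of the peritrophic matrix, the chitinous layer that lines the gut. They were followed by EN024926, EN020638 and EN010087 (r = 0.85, 0.85 and 0.81). For EN018439 the most alike were an NADP-dependent malic enzyme (EN011712, r = 0.80, 17 arrays) and a calcium and integrin binding protein (EN029006, r = 0.79, 18 arrays). EN010087, RAD1 (EN006247) and a DnaJ heat shock protein (EN011260) followed at 0.76, 0.75 and 0.73. For EN018395 they were EN012155, EN024200, an S-adenosylmethionine synthetase (EN024128), another peritrophin A (EN015393) and EN018167, with r from 0.81 to 0.83. Counted among all candidates, EN018439 was in place 155 for EN025070 and EN018395 in place 218. The transcripts named as most alike were picked as the highest of 1936 correlations over the same arrays, so that their r is high by selection. Whether they share regulation with a lysozyme was not tested.

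Other antibacterial genes were set beside the lysozymes. Of 4 antimicrobial peptides, small secreted proteins that kill microbes, 3 were in the list. Gambicin, a peptide first known from this mosquito, was called in the cardia versus posterior comparison at 1.46 ± 0.08 (SD, n = 3; adjusted p = 0.00587 in limma). The cecropins CEC3/CECB, at 1.69 ± 0.52, and CEC2/CECC, at 1.53 ± 0.29, were above 2-fold on average but had an adjusted p of 0.0560 each. Defensin 1 was outside the list and measured 1.23 ± 0.24. The median of the 3 listed peptides was 1.53, that of the 3 lysozymes 1.39 and that of all listed transcripts -0.02. EN025070 had a higher mean than each of the 4 peptides, and EN018439 was close to gambicin. In the sex comparison, none of the 3 listed peptides was called, and they lay between 0.50 and 0.89. Defensin 1, fitted with all transcripts, was at 1.025 ± 0.384 (SD, n = 3) there and was not called (adjusted p = 0.0931 in limma). Each of the 4 peptides was higher in males on 3 of 3 arrays. In the comparisons with whole midgut none was called either.

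Pattern recognition proteins were also described. Of 11 peptidoglycan recognition proteins (PGRPs), many of which bind the polymer that lysozymes cut, and Gram-negative bacteria binding proteins (GNBPs), 8 were in the list. Between cardia and posterior midgut 1 of the 8 was called, PGRPS3, a short PGRP, at 1.08 ± 0.03 (SD, n = 3; adjusted p = 0.0202 in limma). PGRPLC1, a form of the receptor that starts the Imd pathway, was at 0.96 ± 0.18, just under 2-fold (adjusted p = 0.0141). The other 6 lay between -0.72 and 0.30, and the median of the 8 was 0.19. PGRPS3 was also called in the anterior-posterior part, at 1.13, and no other call was made among the 8. The Imd pathway's NF-kB factor REL2 was at -0.71 ± 0.30 in the cardia versus posterior comparison and was not called in any of the 6.

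**Figure D5:**
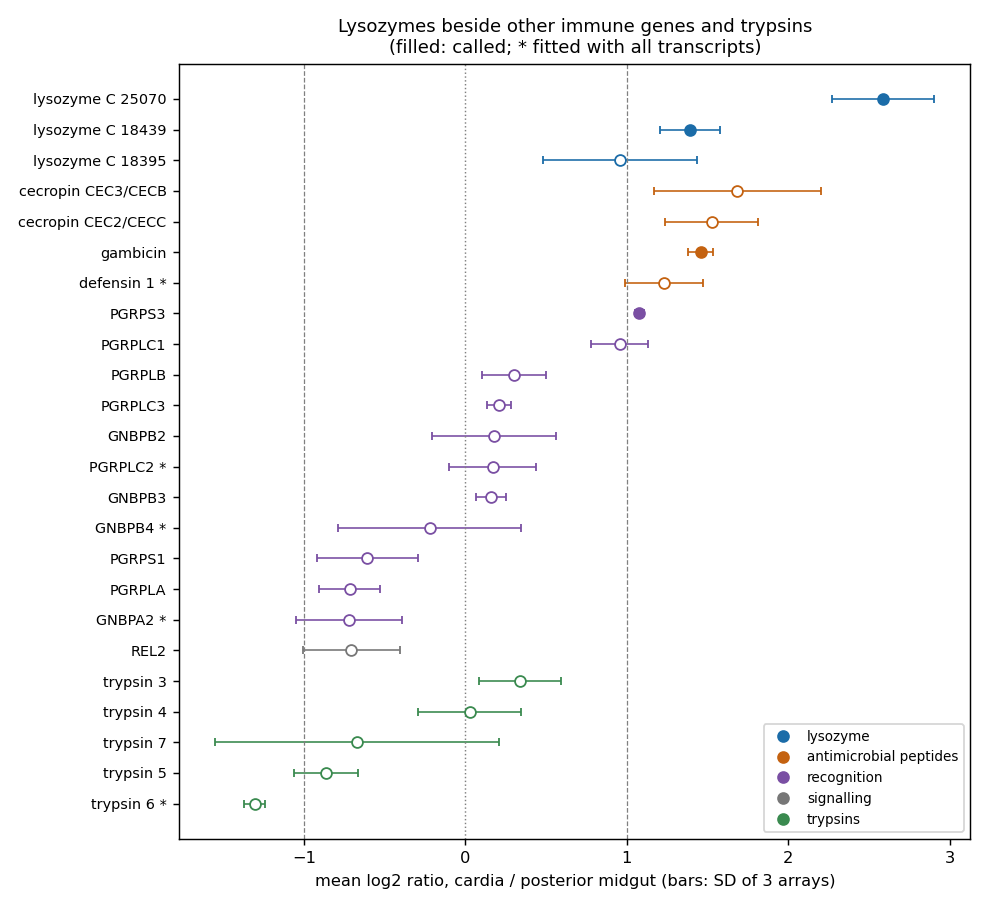
Mean log2 ratio of cardia to posterior midgut (horizontal axis, bars of 1 SD over 3 arrays) for the lysozymes, antimicrobial peptides, recognition proteins, REL2 and trypsins (vertical axis). Filled points were called, dashed lines mark 2-fold and an asterisk marks genes outside the list. EN025070 is highest at 2.59, the other lysozymes and the peptides lie between 0.96 and 1.69, and PGRPS3 at 1.08 is the highest recognition protein.

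Trypsins, digestive proteases known from the posterior midgut, served to check the compartments. Of 5 trypsins, 4 were in the list. Trypsin 3 and trypsin 4 were called higher than in whole midgut in the anterior-posterior part, at 1.50 and 1.39, and in the posterior-posterior part, at 1.43 and 1.25. None of the 4 was called in the cardia or the anterior part, but trypsin 3 was at 0.94 ± 0.78 (SD, n = 3; adjusted p = 0.0876 in limma) in the cardia, above 0 on 3 of 3 arrays, and at 0.62 ± 0.88 in the anterior part. Trypsin 4 was at 0.63 ± 0.75 and 0.45 ± 0.75 in the same parts. In the cardia versus posterior comparison, where the lysozymes were high, none of the 4 was called, and they measured from -0.86 for trypsin 5 to 0.34 for trypsin 3, with a median of -0.32. In the sex comparison, the 4 lay between -0.62 and 0.23 and none was called. The study's text names these 4 as well among the transcripts enriched in females. Trypsin 3 was at 0.23 here, higher in males on 3 of 3 arrays. Trypsins 4, 5 and 7 were on the female side, at -0.11, -0.62 and -0.14. Trypsin 6 was outside the list and was fitted with all transcripts. It measured -1.94 ± 0.71 (SD, n = 3) in the sex comparison, lower in males on 3 of 3 arrays, and was called there (adjusted p = 0.0377 in limma), as were 1047 of 14198 transcripts (7.37%) in that fit, whose median was -0.70. Between cardia and posterior midgut it was at -1.30 ± 0.07 and was not called (adjusted p = 0.185).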

How the data were processed

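The authors scanned the arrays with GenePix and, per their methods, removed spots under a signal of 100 units, applied LOWESS normalization and ran t-tests at a p of 0.05. The deposited values are log2 ratios of Cy5 to Cy3 per spot, with array medians away from 0, so that the normalization is not in them, and without intensities. The value 16.6096 in 120 spots, a ratio of 100000, was set missing. The log2 values of spots with the same transcript identifier were averaged. limma 3.58.1 in R 4.3.3 fitted 1 mean per comparison to 18 arrays, over the 1937 listed transcripts with values on at least 2 arrays of the comparison. The fit was tested on simulated data. Tables and figures were made with Python 3.11.15, pandas 2.3.3, NumPy 2.4.6, SciPy 1.17.1 and matplotlib 3.10.9. An exact sign-flip test of 3 arrays cannot go under a p of 0.25 and was not used.

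The lysozymes and the other gene lists were chosen with earlier results of these data known. The genes named are the lysozymes, these lists and, for each lysozyme, the 5 listed transcripts with the highest correlation over at least 15 arrays. Gene names came from the male versus female sheet of the study's gene list. Alternatives were other centrings, tested sets, spreads, array weights, a replicate block, each array left out, the median of spots and the methods' t-test. Genome positions and probe sequences were not used here.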

Additional observations from a re-analysis of the deposited data

How the results depend on the processing

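The replicate numbers of the labels were not used as pairs across comparisons, and the labels do not say whether same-numbered arrays shared samples. The correlations that follow cannot decide this, because each comparison had only 3 arrays. The 45 same-numbered pairs of arrays of different comparisons had correlations of deviations from -0.42 to 0.34, with 7 over 0.1. With the replicate number as a block, 16, 80, 33, 195, 2 and 92 transcripts were called in the sex comparison, in the 4 comparisons with whole midgut (cardia first, posterior-posterior last) and in the cardia versus posterior comparison, compared with 28, 88, 60, 206, 32 and 102 without it. The block changed no call of a lysozyme, and EN018439 and EN025070 stayed at 1.39 and 2.59 in the cardia versus posterior comparison (adjusted p = 0.00670 and 0.00686 in limma). In the same order, the counts were 428, 50, 647, 801, 221 and 148 with arrays centred on all transcripts, 2, 1523, 115, 930, 692 and 68 without centring, and 1047, 195, 863, 3585, 0 and 39 with all transcripts tested. They were 152, 88, 156, 439, 0 and 136 with all 3101 transcripts of the study's gene list, 103, 0, 0, 0, 0 and 149 with the own 3 arrays of each comparison, and 107, 0, 172, 317, 123 and 190 with array weights. The methods' t-test gave 72, 22, 51, 125, 56 and 130 transcripts past 2-fold at an unadjusted p of 0.05, and 0, 0, 0, 0, 0 and 7 after Benjamini-Hochberg. Leaving out 1 array gave 0 in each case for the sex and the posterior-posterior comparison, 73 to 214, 0 to 41 and 78 to 298 for the cardia, anterior and anterior-posterior comparisons, and 25 to 53 for the cardia versus posterior comparison, with fewer arrays in each fit. The cause of the other changes was not tested.

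For the lysozymes, the cardia versus posterior calls were lost with all transcripts tested (EN018439 1.39, EN025070 2.59) and with the adjusted methods' t-test, at the same 1.39 and 2.59 (adjusted p = 0.0973 and 0.0951). Leaving out 1 array gave 1.31 to 1.50 for EN018439 and 2.42 to 2.73 for EN025070, with a call in 1 of 3 fits each. EN018395 was called in this comparison with arrays centred on all transcripts (1.17), with array weights (1.05) and on the REP spot alone (1.43), which was chosen after seeing the data. The sex ratio of EN025070 was called at 1.34 with its own arrays, with array weights and in the unadjusted methods' t-test, and at 2.01 with arrays centred on all transcripts.

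With arrays centred on all transcripts, the list medians were 0.65, 0.74, 0.875 and 0.48 in the sex, anterior, anterior-posterior and posterior-posterior comparisons. EN018439 was then called in the anterior (1.52) and anterior-posterior (1.02) parts and changed sign in the posterior-posterior part (0.31). EN018395 changed sign in the sex (0.48), anterior (0.67), anterior-posterior (0.13) and posterior-posterior (0.23) comparisons, and EN025070 in the anterior (0.19) and posterior-posterior (0.13) parts. Of the contrasts, cardia minus anterior was -0.62 for EN018439 and -0.49 for EN018395, cardia minus anterior-posterior -0.11 for EN018439, cardia minus posterior-posterior -0.05 for EN018395, and anterior minus posterior-posterior 0.05 for EN025070. Without centring, EN018439 was at -0.63 in the cardia, at -0.84 in the anterior-posterior part and, called, at -1.0 in the posterior-posterior part. EN018395 was called at -1.35, -1.74 and -1.08 in the same parts, and EN025070 was at -0.30 in the cardia and called at -2.11 in the anterior-posterior part. The list medians without centring were -1.45, -0.987 and -0.829 in the cardia, anterior-posterior and posterior-posterior parts. Cardia minus anterior was then -1.01 for EN018439 and -0.89 for EN018395, cardia minus posterior-posterior -0.27 for EN018395, and anterior minus posterior-posterior 0.23 for EN025070. With array weights, EN018439 was at 0.01 in the posterior-posterior part. The REP spot alone put EN018395 at 0.38, 0.54 and 0.34 in the sex, anterior and posterior-posterior comparisons, and its cardia minus anterior and cardia minus posterior-posterior contrasts at -0.20 and -0.01. The plain spot alone was called at -1.29 in the anterior-posterior part and gave no cardia versus whole value.

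Leaving out 1 array, EN018439 ranged from 0.32 to 1.12 in the cardia and from -0.34 to 0.15 in the posterior-posterior part, EN018395 from -0.34 to 0.90 in the cardia and from -0.26 to 0.04 in the anterior part, and EN025070 from -1.16 to 0.03, -2.25 to -0.36 and -0.81 to 0.32 in the anterior, anterior-posterior and posterior-posterior parts. The contrasts that changed sign were, for EN018439, cardia minus anterior (-0.42 to 0.39) and anterior-posterior minus posterior-posterior (-0.01 to 0.48), for EN018395, cardia minus anterior (-0.22 to 1.01), cardia minus posterior-posterior (-0.09 to 1.15) and anterior minus posterior-posterior (-0.03 to 0.30), and for EN025070, anterior minus anterior-posterior (-0.25 to 1.65) and anterior minus posterior-posterior (-0.92 to 0.38). The median of spots gave no other call.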

Other observations

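The name of EN025070 depends on the sheet of the study's gene list. In the male versus female sheet, of the rows whose text names an identifier of this kind, 877 carried their own and 1 carried another. In the cardia versus posterior sheet, 95 carried their own and 82 another, so that the text beside an identifier can belong to a neighbouring row, and the text beside EN025070 there is that of another gene family. The lysozyme text of that sheet stands beside ENSANGT00000025055, a transcript singled out here after its values had been seen. It is outside the list of 1937 transcripts and was not tested here. It measured -0.99, -0.77 and -0.61 on the cardia versus posterior arrays and -0.57, -1.28 and -3.65 on the sex arrays, of which the third lay far below the others. All 6 values had the opposite sign to those of EN025070.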
